A study of Homo sapiens with 6 samples.

Results

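Described here are 5 genes linked to NRF2 and oxidative stress, SRXN1, OSGIN1, HMOX1, SQSTM1 and LUCAT1, out of 1877 genes in a deposited expression table of LP-1 cells. LP-1 is an established human multiple myeloma line. The genes were taken by name, and they had been picked because their values were lower after RNF5 depletion, so the knockdown against control values below describe them and carry no test. LP-1 cells treated with short-hairpin RNA against RNF5 gave 3 libraries (n = 3), and these were set against LP-1 cells labelled Ctrl, which the study's design text calls a non-target control (n = 3). All cells grew in RPMI-1640 with fetal bovine serum. The labels give no harvest time, number of hairpins or statement that libraries came from separate cultures, so p-values measure only the spread between these libraries. Values are a normalized signal of unstated scale, and signals of different genes are therefore not ranked against each other.

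NRF2, encoded by NFE2L2, is a transcription factor that the adaptor KEAP1 holds for ubiquitination in unstressed cells. Electrophiles and oxidants modify KEAP1, NRF2 then accumulates, pairs with a small MAF protein and binds antioxidant response elements near genes of detoxification, glutathione and iron handling. SQSTM1, also called p62, is both a target of NRF2 and a receptor of selective autophagy that binds KEAP1, so the pathway can reinforce itself. Myeloma is a tumour of plasma cells, which secrete much protein and form many disulfide bonds, a source of oxidants in the cell.

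The antioxidant response element core TGACNNNGC, the related AP-1 element TGANTCA and the heat shock element (inverted GAA units, each set off by any 2 bases) were looked for on both strands. The windows were RefSeq promoters (GRCh38.p14), each spanning 250 bases before to 50 bases after a start site. SRXN1, OSGIN1, SQSTM1 (with 3 windows) and LUCAT1 matched an entry, 4 of the 5 genes. The OSGIN1 and LUCAT1 stretches are shown because these windows held a match, and the capitals mark an AP-1 element with TGC directly before it, a longer string looked for after the AP-1 matches had been seen. The OSGIN1 stretch is chr16:83953120-83953239 on the plus strand, the LUCAT1 stretch is chr5:91314403-91314522 on the minus strand, and both end at the base before the start site.
OSGIN1: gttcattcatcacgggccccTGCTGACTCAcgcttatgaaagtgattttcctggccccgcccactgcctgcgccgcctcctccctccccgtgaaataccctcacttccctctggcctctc
LUCAT1: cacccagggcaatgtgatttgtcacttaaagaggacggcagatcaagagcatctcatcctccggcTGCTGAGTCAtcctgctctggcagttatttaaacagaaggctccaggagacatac

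In LUCAT1 the marked letters include a full antioxidant response element core, TGACTCAGC on the opposite strand, which overlaps the AP-1 element TGAGTCA. In OSGIN1 they include the AP-1 element TGACTCA and no core match. The marked string began 55 bases before the LUCAT1 start site and 100 bases before that of OSGIN1. Among all 35116 RefSeq windows, 13.3% held the core, 7.71% the AP-1 element, 0.49% the heat shock element and 0.416% the longer string. The SRXN1 window and the SQSTM1 windows held none of these letters, and none of the members' windows held the heat shock element. A match describes letters and not binding.

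RNF5 itself had a signal of 95.4, 81.35 and 88.44 in the knockdown libraries, against 1595, 1649 and 1248 in the control libraries, so 5.90% of the control mean was left. The 1877 genes are those the authors had selected as changed, with 953 lower and 924 higher, and their signals summed to between 116843 and 122079 in knockdown and between 90825 and 93975 in control libraries. Those sums are not a depth, which is unknown. Control library 3 stood apart: it was the lowest control in 853 of 1290 genes tested and the highest in 187. Of 17 plasma cell markers, 3 were in the table, ITGB7, SDC1 and CD28, and all 3 rose. Their summed signal was 1719 to 1812 in knockdown and 258 to 431 in control libraries. Most of it was the integrin gene ITGB7 (mean 1708 in knockdown, 351 in control). SDC1 averaged 35.5 in knockdown and 12.1 in control, and CD28 20.0 and 6.26. None of 10 T and NK cell or 10 myeloid markers was listed, nor were the plasma cell markers CD38, TNFRSF17, IRF4, PRDM1 and XBP1, which have no values here. Of 12 stromal and epithelial markers 2 were listed, COL1A1 and CLDN4, with a summed signal of 1.36 to 1.92 in knockdown and 2.57 to 3.76 in control libraries. The part of these markers in the results was not tested.

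All 5 genes were lower in the knockdown libraries than in the control libraries, by 1.99-fold (SQSTM1) to 5.96-fold (SRXN1), and in none did the groups overlap. Over the whole table the groups did not overlap in 93.2% of genes, and in 45.5% the knockdown libraries were the lower ones, so the members' separation follows from how the table was made. In bulk RNA, a smaller share of cells with a transcript and less transcript per cell cannot be told apart. All 5 passed the filter on low signals.

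SRXN1 (ENSG00000271303, chromosome 20) encodes sulfiredoxin, which reduces over-oxidized peroxiredoxins back to active enzyme. Its signal was 18.52, 20.11 and 18.94 in the knockdown libraries, against 131.91, 127.05 and 84.13 in the control libraries. The knockdown values lay within a narrow band, and even the lowest control, library 3, was 4.18 times the highest knockdown value. The mean was 19.2 ± 0.824 in knockdown and 114 ± 26.3 in control (SD, n = 3 each), which left 16.8% of the control signal. On the log2(signal + 1) scale, which understates changes of genes with low signals, the difference was -2.49 (SE 0.20). Among the 1290 genes tested, SRXN1 had the 8th most negative difference on this scale and the 49th lowest ratio of mean signals, an order without a pseudocount. In GENCODE release 29, 2292 of its 2698 exonic bases are shared with AL121758.1, a protein-coding gene on the same strand that is not in the table. The reads of the pair may have been split by the authors' counting.

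OSGIN1 (ENSG00000140961, chromosome 16), a stress-induced growth inhibitor and known NRF2 target, had a signal of 5.37, 4.56 and 3.76 in the knockdown libraries, against 28.0, 31.36 and 21.05 in the control libraries. The lowest control was again library 3, at 3.92 times the highest knockdown value. The means were 4.56 ± 0.805 in knockdown and 26.8 ± 5.26 in control (SD, n = 3 each), a 5.87-fold lower signal with a log2 difference of -2.31 (SE 0.21). The OSGIN1 and SRXN1 changes were of like size, although the OSGIN1 signal varied more between knockdown libraries (CV 17.6% for OSGIN1 and 4.29% for SRXN1). The annotation places 481 of the 3460 exonic bases of OSGIN1 under another protein-coding gene of the same strand, AC009119.2, also not in the table.

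HMOX1 (ENSG00000100292, chromosome 22) encodes haem oxygenase 1, which splits haem into biliverdin, carbon monoxide and iron. It had a signal of 10.55, 9.64 and 11.34 in the knockdown libraries, against 45.06, 50.44 and 32.46 in the control libraries. The lowest control library was 2.86 times the highest knockdown library. Means were 10.5 ± 0.851 in knockdown and 42.7 ± 9.23 in control (SD, n = 3 each), so that 24.6% of the control signal was left, with a log2 difference of -1.90 (SE 0.20). HMOX1 shares no exonic base with another gene in that annotation.

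SQSTM1 (ENSG00000161011, chromosome 5) encodes the autophagy receptor p62, and of the 5 genes it differed least between the groups. Its signal was 172.07, 165.45 and 171.68 in the knockdown libraries, against 384.77, 429.96 and 198.92 in the control libraries. The knockdown libraries were nearly alike (CV 2.19%), while the controls varied widely (CV 36.2%), and control library 3 stood at 48.8% of the mean of control libraries 1 and 2. That library was 1.16 times the highest knockdown library, so the separation of the groups rests on a small gap. The means were 170 ± 3.71 in knockdown and 338 ± 122 in control (SD, n = 3 each), a log2 difference of -0.91 (SE 0.24). Without control library 3 the mean signal was 2.40-fold lower in knockdown, and the log2 difference was -1.26. On the opposite strand, MRNIP covers 1582 of the 7654 exonic bases of SQSTM1 and MGAT4B covers 105, and without a stated strand setting their reads cannot be told apart there.

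LUCAT1 (ENSG00000248323, chromosome 5) is a long non-coding RNA that is induced with the NRF2 response in human airway cells. Its signal was 6.62, 5.42 and 8.47 in the knockdown libraries, against 36.42, 33.9 and 32.24 in the control libraries. Unlike the 4 protein-coding members, it was nearly even among the controls (CV 6.16%), and control library 3 reached 91.7% of the mean of the other two. Means were 6.84 ± 1.54 in knockdown and 34.2 ± 2.10 in control (SD, n = 3 each), so that 20.0% of the control signal was left, with a log2 difference of -2.18 (SE 0.19). The annotation classes LUCAT1 as antisense, but no exon of another gene overlaps its exons there.

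**Figure D1:**
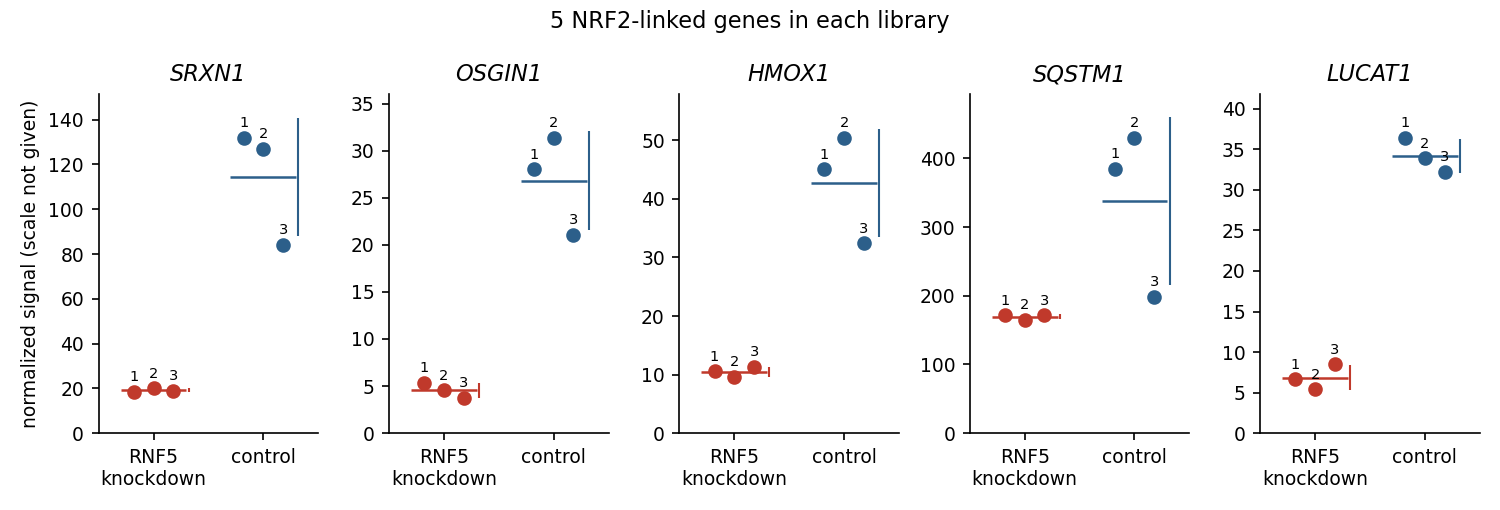
Normalized signal (vertical axis, scale not given, from 0) of SRXN1, OSGIN1, HMOX1, SQSTM1 and LUCAT1 in the 3 RNF5 knockdown libraries (red) and 3 control libraries (blue), numbered by replicate. Horizontal lines are means and vertical bars SDs. The groups do not overlap in any panel, and control library 3 of SQSTM1 (198.92) is close to the knockdown libraries.

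The log2 fold changes in the authors' deposited table were more negative for every member than the differences of log2(signal + 1). They were -2.74 for SRXN1, -2.71 for OSGIN1, -2.21 for HMOX1, -1.37 for SQSTM1 and -2.66 for LUCAT1. These measures are unlike, since the pseudocount shrinks differences of low signals. With a pseudocount of 0.1 OSGIN1 was at -2.52 and SQSTM1 at -0.92, still less negative than deposited. Over the genes tested, the log2 ratio of mean signals exceeded the authors' deposited log2 value by a median of 0.16. The library values alone did not give the deposited fold changes, and their scaling is not described in the labels or headers.

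A common factor applied to all genes of a library cancels in ratios taken within that library. The normalization is not described, and differences along gene length, given below for control library 3, would not cancel. The ratios restate how the members' folds compare, and those folds come from the values that picked the members. The share of non-overlapping ratios among other gene pairs was not counted. The ratio of SRXN1 to OSGIN1 was 4.30 ± 0.800 in knockdown and 4.25 ± 0.398 in control libraries (SD, n = 3 each), and the groups overlapped. Against LUCAT1, the ratios of SRXN1, OSGIN1 and HMOX1 overlapped between the groups as well. The ratio of SRXN1 to SQSTM1 was 0.113 ± 0.00738 in knockdown and 0.354 ± 0.0644 in control libraries, without overlap. OSGIN1 to SQSTM1 was lower in knockdown by a like factor (0.0269 ± 0.00469 in knockdown and 0.0838 ± 0.0190 in control), and HMOX1 to SQSTM1 was 0.0619 ± 0.00392 in knockdown and 0.133 ± 0.0265 in control. HMOX1 was lower by a smaller factor than SRXN1 and OSGIN1. SRXN1 to HMOX1 was 1.84 ± 0.220 in knockdown and 2.68 ± 0.218 in control libraries, and OSGIN1 to HMOX1 was 0.438 ± 0.0938 in knockdown and 0.631 ± 0.0155 in control libraries, both without overlap.

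Likeness of profile was measured over the 6 libraries as the root mean square difference of log2(signal + 1), each gene set to its own mean. Since the table holds genes selected as changed between 2 groups, a small distance largely means a knockdown difference of like size. That difference is also what the members were picked on, so likeness here is a description and not a sign of shared regulation. The candidates for each member were 534 named genes with a mean signal of at least 5. Nearest to SRXN1 were 2 heat shock genes, the HSP70 co-chaperone DNAJB1 (0.067) and the inducible HSP90 gene HSP90AA1 (0.132). DNAJB1 had signals of 31.05, 32.64 and 30.56 in knockdown and 196.79, 181.89 and 132.03 in control libraries, with the same low control library 3 as SRXN1. OSGIN1 was nearest to DNAJB1 (0.146) and to the interferon-induced gene IFIT3 (0.151), and next to SRXN1 (0.177). HMOX1 was nearest to EPHX1 (0.086), which encodes microsomal epoxide hydrolase and belongs to the detoxification list below, and to GNAO1 (0.089), a G protein subunit gene. SQSTM1 was nearest to the transcription factor gene ETS2 (0.092) and to B4GALNT1 (0.112), a ganglioside synthase gene. ETS2 shared its pattern, with 7.71, 7.9 and 7.83 in knockdown and 16.38, 18.73 and 9.35 in control libraries. LUCAT1 was nearest to HMOX1 (0.235) and HSP90AA1 (0.242), at larger distances than the nearest neighbours of the other members. SQSTM1 was 141st in likeness to SRXN1, while OSGIN1, LUCAT1 and HMOX1 were 5th, 7th and 8th. The size of the fall, which these distances largely restate, split the members in the same way. Among the genes tested SRXN1 ranked 8, OSGIN1 12, LUCAT1 16, HMOX1 25 and SQSTM1 281 on the log2 scale. By the ratio of mean signals, without a pseudocount, SRXN1 ranked 49, OSGIN1 51, LUCAT1 66, HMOX1 84 and SQSTM1 379.

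**Figure D2:**
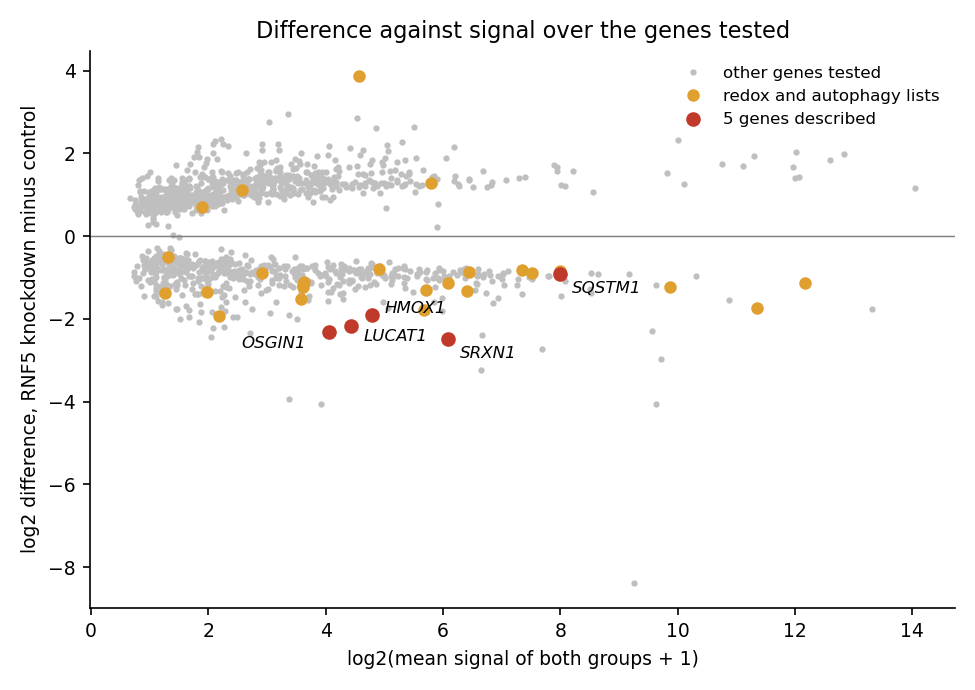
Log2 difference on the log2(signal + 1) scale, RNF5 knockdown minus control (vertical axis), against log2 of the mean signal plus 1 (horizontal axis) for the 1290 genes tested. The 5 members are red and labelled, the genes of the redox and autophagy lists orange. SRXN1 at -2.49 lies below most genes of its signal, SQSTM1 at -0.91 lies among them, and few genes lie near 0 because the authors selected changed genes.

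Other genes came from 8 lists with 167 genes, called pathway lists below, of which 27 were in the table and 25 had enough signal to test. They cover NRF2 regulators and targets, and also other redox enzymes and autophagy partners of SQSTM1, so not all are NRF2 targets. The lists were chosen with earlier results of these data known. Their counts beside the shares over all genes are therefore a description and no test of the pathway. Of these 25, 21 fell and 4 rose in limma at a Benjamini-Hochberg adjusted p under 0.05, with a median log2 difference of -1.14. ABCC2 passed the filter on low signals only through the control libraries, so its direction was fixed, and without it 20 of 24 fell (median -1.12). CYP4F11 and SELENOP, still among these 20, reached a signal of 1 in only 1 knockdown library each. They too passed mainly through their control libraries. Over all 1290 genes tested, 42.0% were called lower and 55.7% higher, and the median log2 difference was 0.73. Without the 258 genes that passed the filter through 1 group only, 42.8% of 1032 were lower and 54.4% higher. The authors selected the genes on these libraries, so calls are near certain for any listed gene (97.7% passed) and the counts say nothing of the 140 list genes without values. None of the 19 regulators, among them NFE2L2, KEAP1, BACH1 and the small MAF genes, was in the table.

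Haem and iron genes that act beside HMOX1 fell, 4 of the 4 listed among 11. BLVRB, a biliverdin reductase, had signals of 43.34, 36.92 and 44.56 in knockdown and 88.87, 97.0 and 91.22 in control libraries (2.22-fold lower, limma adjusted p = 6.93e-05). The ferritin chains that store iron fell as well, the light chain FTL to 2876 ± 111 in knockdown, against 6355 ± 525 in control (limma adjusted p = 1.24e-05), and the heavy chain FTH1 3.34-fold. SLC48A1, a haem transporter, fell 1.80-fold. In FTL, FTH1 and BLVRB control library 3 was not the lowest control, unlike in HMOX1.

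Genes of the thioredoxin and peroxiredoxin system, which SRXN1 serves, went both ways. Of 20 list genes 5 were in the table, 3 fell and 2 rose. PRDX1, a peroxiredoxin that sulfiredoxin repairs, had 63.44, 55.38 and 63.13 in knockdown and 103.54, 100.82 and 128.47 in control libraries (1.83-fold lower, limma adjusted p = 0.000484). TXN, thioredoxin 1, had 126.33, 120.35 and 126.16 in knockdown and 191, 190.96 and 333.95 in control libraries (limma adjusted p = 0.00175). Here control library 3 was the highest control, the reverse of SRXN1, and without it the log2 difference of TXN was -0.62 in place of -0.88. SESN3, a sestrin, fell 2.59-fold. The rises were TXNIP, which binds and restrains thioredoxin, at 43.4 ± 3.43 in knockdown and 2.06 ± 0.490 in control (limma adjusted p = 9.09e-08), and the low TXNRD3, a thioredoxin reductase, at 3.62 ± 0.455 in knockdown and 1.81 ± 0.190 in control (limma adjusted p = 0.00230).

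Of 28 glutathione genes, 5 were in the table, of which 4 fell and 1 rose. GCLM, the modifier subunit of the enzyme that starts glutathione synthesis, had 6.04, 8.71 and 5.71 in knockdown and 20.27, 14.14 and 13.26 in control libraries (2.33-fold lower, limma adjusted p = 0.000621). GSR, glutathione reductase, had 45.92, 49.27 and 45.88 in knockdown and 147.15, 130.89 and 86.28 in control libraries, with the same control order as SRXN1. The cystine transporter SLC7A11 fell 2.05-fold and its heavy chain SLC3A2 fell 2.35-fold. GGT1, a glutamyltransferase that breaks glutathione down outside the cell, rose 2.44-fold to 77.0 ± 1.46 in knockdown, against 31.6 ± 6.62 in control (limma adjusted p = 8.58e-05). Thus the listed genes of synthesis, cystine supply and reduction were lower and the listed gene of breakdown was higher. Of 7 NADPH genes 1 was listed, IDH1, a cytosolic isocitrate dehydrogenase, and it fell 1.78-fold.

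Of 37 detoxification genes 6 were listed, and the 4 tested besides ABCC2 fell. Among these 4, CYP4F11 reached the filter level of 1 only in knockdown library 1, so its pass rested mainly on the control libraries. EPHX1 had 22.48, 21.28 and 22.05 in knockdown and 86.33, 89.71 and 60.24 in control libraries (3.59-fold lower, limma adjusted p = 1.18e-05). NQO2, a quinone reductase, fell 2.54-fold, and PIR, which encodes the nuclear protein pirin, fell 3.22-fold. The cytochrome gene CYP4F11 had 1.06, 0.81 and 0.77 in knockdown and 7.07, 6.76 and 4.73 in control libraries (limma adjusted p = 9.21e-06), and the export pump ABCC2 averaged 0.327 ± 0.161 in knockdown and 2.47 ± 0.880 in control. ABCC2 could be tested only because of its control libraries and was below the filter when any of them was left out. JAKMIP3, at 0 to 0.01 in knockdown and 0.22 to 0.30 in control libraries, was too low to test. NQO1, the quinone reductase most often used to read NRF2 activity, was not in the table and has no value here. Nor were GCLC, TXNRD1, PGD and the AKR1C genes.

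Of 13 other redox enzymes 3 were listed. SELENOS, a selenoprotein of the endoplasmic reticulum, fell 1.79-fold, and MSRB3, a methionine sulfoxide reductase, rose 2.56-fold to 7.14 ± 0.157 in knockdown, against 2.79 ± 0.793 in control (limma adjusted p = 0.000382). SELENOP passed as lower, at 0.98, 1.33 and 0.79 in knockdown and 2.49, 1.98 and 1.29 in control libraries, but its groups overlapped. Its call was lost without knockdown library 1 or 3 or control library 1 (limma adjusted p = 0.0567, 0.0960 and 0.0707 in that order).

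Of 32 partners of SQSTM1 in selective autophagy, 3 were listed. GABARAPL1, an ATG8 family protein that receptors such as p62 bind, had 1.02, 1.34 and 1.30 in knockdown and 4.48, 4.66 and 4.78 in control libraries (3.80-fold lower, limma adjusted p = 3.71e-05). BAG3, an HSP70 co-chaperone that works with p62, had 5.91, 6.28 and 6.55 in knockdown and 19.2, 20.27 and 9.16 in control libraries (limma adjusted p = 0.00125). Control library 3 stood at 46.4% of the other controls in BAG3 and at 48.8% in SQSTM1. ULK2 was listed at 0 in every knockdown library and at 0.04, 0.62 and 0.17 in the control libraries.

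**Figure D3:**
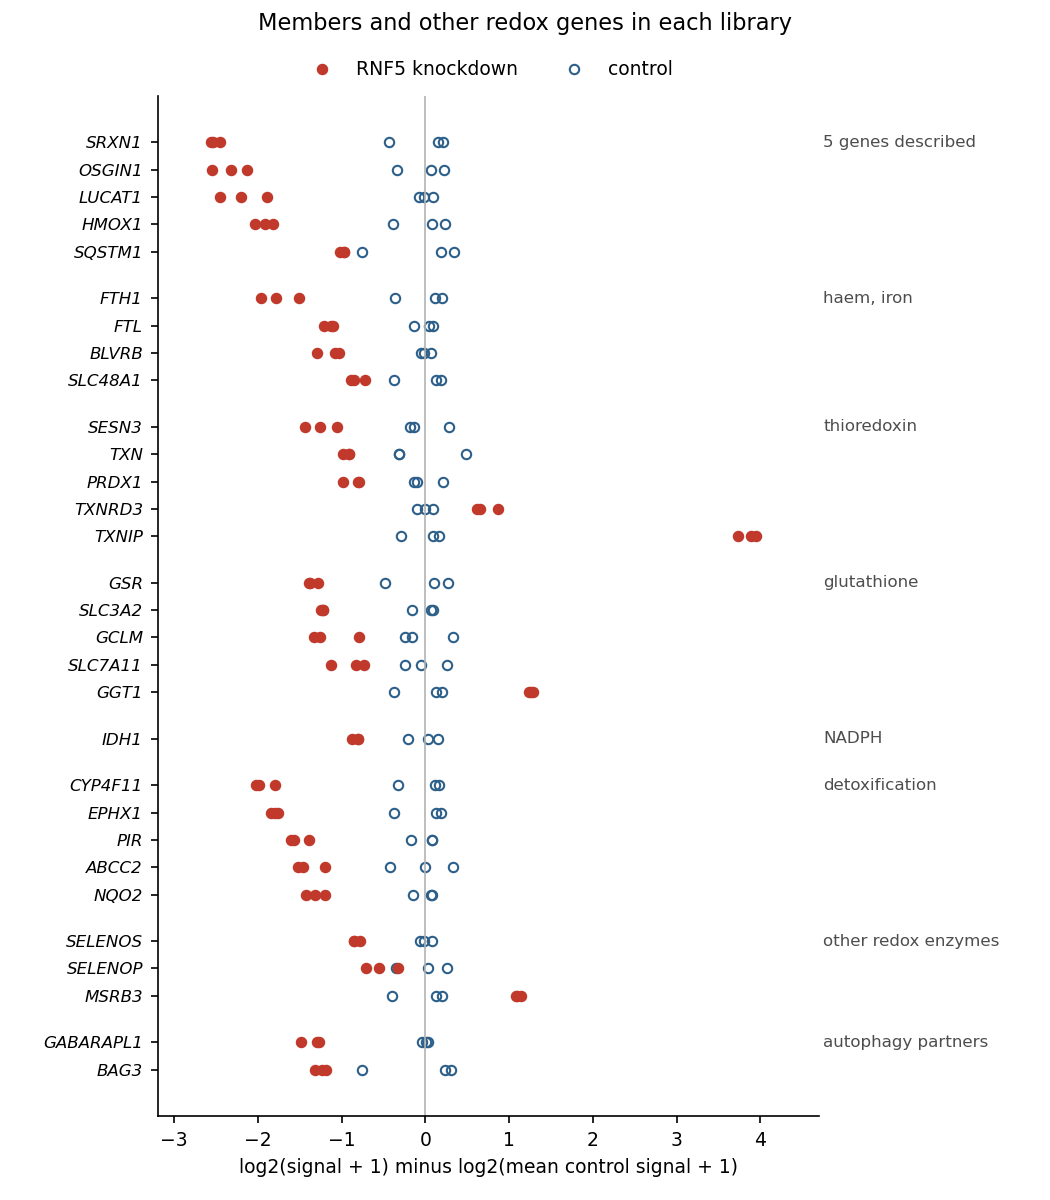
Each library's log2(signal + 1) minus that of the control mean (horizontal axis) for the 5 members and the 25 tested list genes (rows), with RNF5 knockdown libraries filled red and control libraries open blue. Of the 25 list genes 21 lie left of their controls on average, and TXNIP, GGT1, MSRB3 and TXNRD3 lie to the right.

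Among list genes with a RefSeq promoter window, 7 of 17 that fell (41.2%) held the antioxidant response element core, namely CYP4F11, EPHX1, GCLM, IDH1, PIR, SELENOP and SLC3A2. Among those that rose, 1 of 4 held it, GGT1. Of the genes called lower 358 had a window, and of those called higher 384. Counted by gene among those with a window, 16.1% of all genes, 22.9% of those called lower and 15.4% of those called higher held the core. The target lists had been chosen as NRF2 targets, so a higher share of the core in them is no separate finding. The AP-1 element was in 4 of the 17 that fell (23.5%) and 0 of the 4 that rose. Among genes with a window, it was in 9.37% of all, 9.22% of those called lower and 9.9% of those called higher. The heat shock element was in none of the list genes' windows. It was in 8 of the 358 lower genes with a window and in 0 of the 384 higher genes with a window. These are counts of letters over few genes, with no test.

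The low control library 3 of 4 members was set against gene length, since the list genes did not share one control order. Of the 25 tested list genes and the 2 too low to test, control library 3 was the lowest control in 17 and the highest in 3. Over all 1290 genes tested it was the lowest in 853 and the highest in 187. These are like shares, so the counts are not particular to the list genes.

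**Figure D4:**
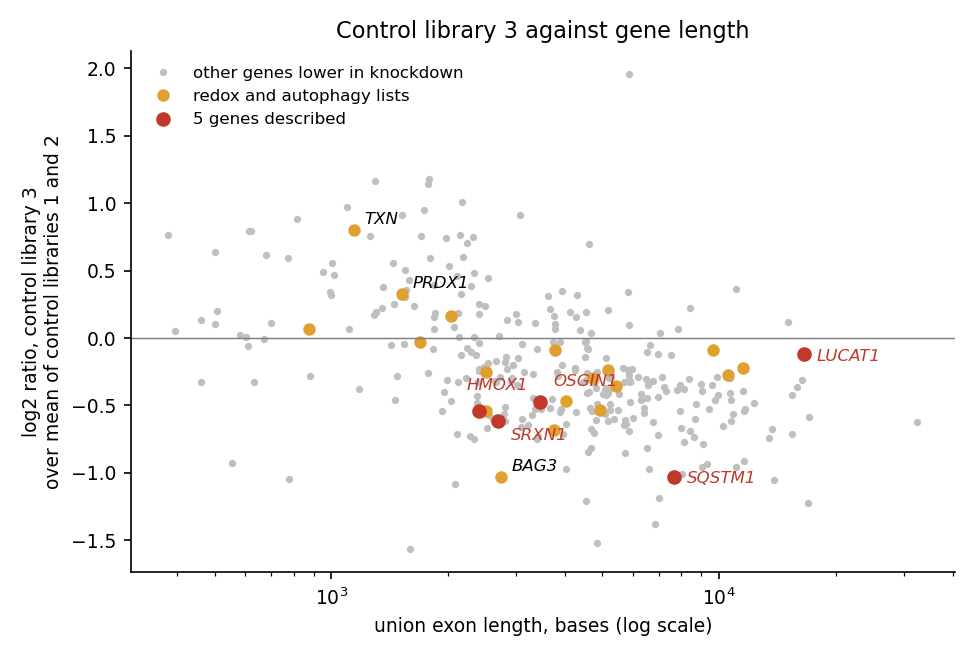
Log2 ratio of control library 3 to the mean of control libraries 1 and 2 (vertical axis) against exonic length in bases (horizontal log axis) for genes lower in knockdown with a mean control signal of at least 5. The 5 members are red and the list genes orange. TXN and PRDX1, of short mRNAs, lie above 0, and all 5 members lie below 0, with SQSTM1 lowest and LUCAT1 nearest to 0.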

How the data were processed

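The authors deposited a normalized signal per gene for 6 bulk RNA-seq libraries, together with a fold ratio, its log2 value and p-values, per the file headers. The deposited signal has 2 decimals and is not a count, so depth and counting error are unknown. Bowtie 0.12.2 and hg19 are named in the submitters' processing notes, with no step given. The table holds only genes selected as changed (smallest absolute deposited log2 value 1.0002).

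Genes with a signal of at least 1 in 3 or more libraries (1290 of 1877) were tested on log2(signal + 1) with the limma package (3.58.1, R 4.3.3), using a trended prior variance, group alone, and Benjamini-Hochberg adjustment over all genes tested. The procedure was tested on simulated data. Members and lists were chosen with earlier results of these data known. Named were the members, every listed pathway and marker gene, 2 nearest profiles per member and RNF5. Regulators, markers and pathway genes named as not listed were chosen after their absence was seen. Exon lengths, classes and overlaps came from GENCODE release 29 by identifier (1721 genes, 91.7%). Promoters came from RefSeq, GRCh38.p14, another build than hg19, and the table holds no coordinates.

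Alternatives were pseudocounts of 0.1 and 5, no filter, a filter at 5, knockdown values divided by the median offset, no trend, a replicate block, each library left out and, chosen after the data were seen, removal of the length trend.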

Additional observations from a re-analysis of the deposited data

How the results depend on the processing

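The 5 members stayed lower in knockdown under all 14 alternatives, but they had been picked for this direction in the same libraries. The changed filters, the fit without a trend and the replicate block cannot alter a member's difference, so they say nothing of its stability. With a pseudocount of 5, OSGIN1 was at -1.72, LUCAT1 at -1.73 and HMOX1 at -1.60 on the log2 scale, and with the length trend removed LUCAT1 was at -2.41. Leaving out 1 library gave -2.69 to -2.37 for SRXN1, -2.47 to -2.19 for OSGIN1, -2.08 to -1.77 for HMOX1, -1.26 to -0.70 for SQSTM1 and -2.33 to -2.05 for LUCAT1. Genes of the pathway lists that fell then numbered 19 to 21 and those that rose 4. Over all genes, 415 to 527 were lower and 555 to 716 higher. A filter at 5 tested 660 genes (291 lower, 363 higher), and no filter tested all 1877 (882 lower, 905 higher). Same-numbered libraries did not deviate together (r = -0.16, -0.07 and -0.08). Deviations within groups of 3 are tied to each other, so these values cannot show whether such libraries shared a culture or batch. The replicate block gave 551 lower and 721 higher genes, 21 and 4 in the pathway lists, and left the member differences as they were. After division of knockdown signals by the median offset, 554 genes were lower and 695 higher. The unknown depth limits all low signals.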

Other observations

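Control library 3 differed from control libraries 1 and 2 in part along gene length. Over 320 genes lower in knockdown with a mean control signal of at least 5, the log2 ratio of control library 3 to the mean of the other two had a Spearman rho of -0.51 with exonic length. This is a description across genes of the same 3 libraries, and genes are not independent replicates. The median of that log2 ratio was 0.11 for 25 genes of up to 1000 bases, 0.28 for 42 genes of 1000 to 2000 bases, -0.23 for 101 genes of 2000 to 4000 bases, -0.38 for 105 genes of 4000 to 8000 bases and -0.49 for 47 genes over 8000 bases. The short mRNAs of TXN (1142 bases) and PRDX1 (1522 bases) stood at 175% and 126% of the other controls there, FTL (878 bases) at 105% and BLVRB (1689 bases) at 98.2%. SRXN1 (2698 bases), HMOX1 (2405 bases) and OSGIN1 (3460 bases) stood at 65.0%, 68.0% and 70.9%. LUCAT1, with the longest annotated exonic sequence of the 5 (16538 bases over all its isoforms), stood at 91.7% and did not follow that order. Several list genes did not follow it either. BAG3 (2747 bases) stood at 46.4%, SELENOS (3766 bases) at 94.0%, GABARAPL1 (4086 bases) at 105% and SLC7A11 (9645 bases) at 93.5%. The order was thus loose among the list genes. The knockdown difference itself had a Spearman rho of 0.12 with length over 493 genes. Lengths are of all annotated exons, which for genes of many isoforms exceed the transcripts present. The part of length in the member values was not tested beyond removal of its trend in the knockdown difference, after which SQSTM1 was at -0.95 and SRXN1 at -2.35 on the log2 scale.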
